A study of Mus musculus with 2 samples.

Results

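Stromal fibroblasts of the mouse parotid gland (PG) were taken from the single-cell libraries by their collagen and proteoglycan transcripts. A cell was a member where Col1a1, Col1a2, Col3a1, Dcn and Lum together reached at least 3 UMIs. It also had under 3 UMIs of the endothelial genes Pecam1, Plvap, Flt1, Emcn, Kdr and Cdh5, and no UMI of Cd3d, Cd3e, Cd3g, Cd79a, Cd79b or Ms4a1. A UMI (unique molecular identifier) stands for 1 captured transcript. Only barcodes with 200 or more genes, and with no more than 10% mitochondrial UMIs, were counted as cells. The rule found 78 members among 10362 such cells, of 13343 barcodes in all. The members were 46 of 4105 control cells, 1.12% (exact binomial 95% interval 0.822 to 1.49), and 32 of 6257 IR cells, 0.511% (0.350 to 0.721). Among cells with fewer than 3 UMIs of an immune list they were 40 of 1079 (3.71%, 2.66 to 5.01) and 29 of 1106 (2.62%, 1.76 to 3.74), intervals that overlap.

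The glands came from wild-type C3H female mice. The IR group received 6 Gy a day to the head and neck on 5 consecutive days, 30 Gy in total, at 6 to 10 weeks of age, and its glands were collected 10 months later. The control group was not irradiated. Cells of 2 mice were pooled into 1 library per condition, so that no difference between the conditions could be set against the spread between animals, and none was tested. The intervals below cover counting error only. The libraries held 22707876 UMIs in control and 23890757 in IR. They shared 12 barcodes, and 0 of these belonged to a member.

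Fibroblasts build the connective tissue of a gland. They secrete the fibrillar collagens and the small proteoglycans that space the collagen fibrils, and they send growth factors and chemokines to epithelium, vessels and immune cells. Fibroblasts of the adventitia around vessels and ducts, marked by Pi16, Dpp4 and Cd34 in many organs, are commonly told from fibroblasts of the parenchyma, marked by Col15a1 and Penk. Other stromal cells are rich in Cxcl12, a chemokine that retains lymphocytes and progenitor cells. Lasting change of this tissue is a known late effect of radiation.

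The fibroblast label held for most members and not for all. The panel of Epcam, Krt7, Krt8, Krt18, Cldn3 and Cldn7 marks epithelium, and that of Ptprc, Laptm5, Coro1a, Cd53, Tyrobp and Fcer1g marks immune cells. At least 3 UMIs of either panel were found in 13 control and 9 IR members. Of these, 11 control and 8 IR members carried the epithelial panel. In 8 and 4 of them no UMI of Col1a1, Col1a2 or Col3a1 was present, and they had entered through Dcn, the proteoglycan decorin, alone. Several held Krt14, Krt5 and Acta2, which mark myoepithelial cells. The control member with 134 UMIs of Acta2 had 46 of Krt14, 25 of Dcn, 41 of the immune panel and none of the collagens. Some were also deep droplets rich in transcripts of acinar cells. The deepest had 94176 UMIs, 63.8% of them from secretory genes, with 29 UMIs of Acta2, 20 of Krt14 and 3 of Dcn.

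The 22 members that carried a panel were few but held most of the transcripts, 363795 of 528952 UMIs in control and 169410 of 237888 in IR. Secretory genes of acinar cells were 51.9% and 52.2% of those UMIs, and 2.80% and 3.69% of the UMIs of the other members. The 33 control and 23 IR members with fewer than 3 UMIs of each panel are called the panel-negative fibroblasts here, and values are given for them beside those of all members. They were 0.804% (0.554 to 1.13) of control cells and 0.368% (0.233 to 0.551) of IR cells. Their median depth was 5136 UMIs in control and 3168 in IR. Some of them also stood apart. One IR cell with 2048 UMIs had 37 UMIs of Acta2, 24 of Myl9 and 6 of Rgs5, the marks of vessel-wall (mural) cells, and no Dcn. One control cell had 13 UMIs of Scn7a, which marks Schwann cells, and no Dcn. The Schwann-cell list reached 32 UMIs in 1 further IR member, which carried the immune panel.

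**Figure D1:**
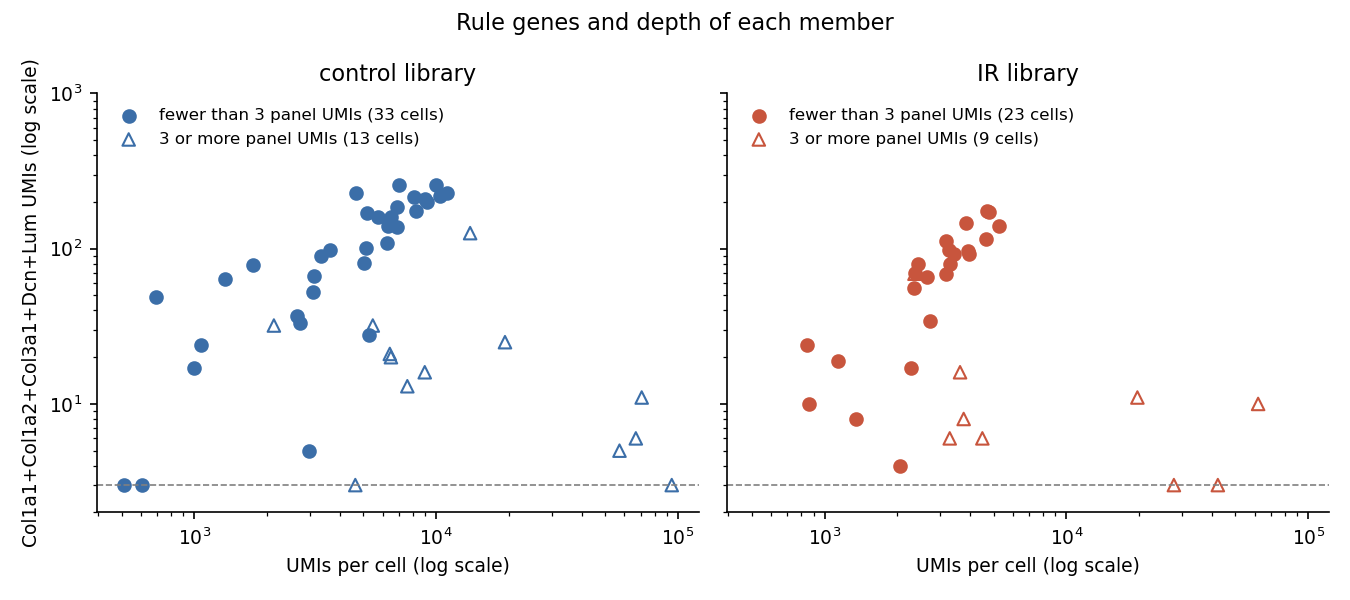
Summed UMIs of the 5 rule genes (vertical axis, log scale) against the UMIs of the cell (horizontal axis, log scale) for each member, control at left and IR at right; filled circles are panel-negative fibroblasts, open triangles are members with at least 3 UMIs of the immune or epithelial panel, and the dashed line is the limit of 3 UMIs. Most filled circles lie high for their depth, while the deep droplets at right have few rule-gene UMIs and are nearly all triangles.

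At the limit of the rule, 4 control and 2 IR members had exactly 3 UMIs of the 5 genes, and 10 control and 8 IR cells that were kept out had 2. Most members were far from it. Dcn had a median of 77 UMIs (0 to 213) in the 33 panel-negative fibroblasts of the control library and 62 (0 to 146) in the 23 of the IR library. Dcn lies on chromosome 10 (97479609 to 97518143 in GRCm38) next to Lum (97565128 to 97572703), which encodes lumican. The 3 collagen genes lie apart, Col1a1 on chromosome 11, Col1a2 on chromosome 6 and Col3a1 on chromosome 1.

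These 5 genes chose the cells, so their levels are a description. In panel-negative fibroblasts they summed to 23547 CPM (UMIs per 1000000 of the group) in control and 25979 CPM in IR. B cells, which should lack them, stood at 4.34 and 3.60 CPM, and endothelial cells at 7.48 and 4.76 CPM, both being groups from which cells with 3 such UMIs had been kept out. None of the 5 genes differed by 2-fold between the libraries. Col1a1 had 143 UMIs in control and 69 in IR, an IR/control ratio of CPM of 1.16 (0.860 to 1.56). Col1a2 had 315 and 110 UMIs (0.842), Col3a1 363 and 142 (0.944), Dcn 2760 and 1308 (1.14), and Lum 308 and 150 (1.17). Only the interval of Dcn, 1.07 to 1.22, left out a ratio of 1.

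Genes that the rule did not use marked the same cells. Clec3b, which encodes the plasminogen-binding protein tetranectin, is the marker of these cells that the rule leaves out. It had 486 UMIs in 29 of 46 control members and 106 in 16 of 32 IR members. After thinning each panel-negative cell to 1000 UMIs it was detected in 21 of 29 control (72.4%) and 12 of 21 IR cells (57.1%), against 84.8% and 69.6% without thinning. In B cells, of median depth 2359 and 2046 UMIs, it was detected in 2 of 990 and in 0 of 1007. Where a count of 0 is set to 3, the latter allows detection in up to 0.298% of cells (the exact 95% bound is 0.366%). This limits detection at that depth and not the share of B cells that express the gene. No UMI of it was found in 105 control or 73 IR endothelial cells.

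A gene was called high where the members held 25 or more of its UMIs, 10% or more of them had one, and its CPM was 2 or more times the CPM of the remaining cells. In control 590 of 1755 genes (33.6%) were high, and in IR 246 of 677 (36.3%). In panel-negative fibroblasts the shares were 64.4% of 901 genes and 58.9% of 370. The lists of all members shared 207 genes, 35.1% of the control list and 84.1% of the IR list. Fewer genes reached 25 UMIs in IR, and among the 671 that did in both libraries 232 were high in control and 240 in IR, of which the 207 were 89.2% and 86.2%. Outside the rule genes, the 10 with the highest ratio in the library where it was lower were Tnfaip6, Pi16, Clec3b, Igfbp6, Dpt, Adamts5, Efemp1, Mmp2, Col6a3 and Col5a2. Since the members had been chosen by transcripts of the same cells, these are descriptions of what such cells hold.

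Tnfaip6, which encodes a hyaluronan-binding protein secreted during inflammation, led the list. It had 223 UMIs in 22 control members and 75 UMIs in 14 IR members, 1033 times (515 to 2422) and 977 times (452 to 2514) the CPM of the other cells. Endothelial and B cells of either library held 0 UMIs of it. Pi16, a membrane-linked inhibitor of peptidases, was restricted to few members, 13 in control and 5 in IR, with 175 and 31 UMIs. Igfbp6, which binds insulin-like growth factors, had 361 UMIs in 22 control members and 44 in 9 IR members. Dpt (dermatopontin), Efemp1 (fibulin-3), Mmp2 (a gelatinase) and Adamts5 (an aggrecanase) had UMIs in 17 to 29 control and 10 to 17 IR members.

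Against endothelial cells, the other stromal class of the gland, 314 of 1755 genes (17.9%) reached 2 times their CPM in control members and 132 of 677 (19.5%) in IR members. In panel-negative fibroblasts the shares were 30.4% of 901 and 48.9% of 370 genes. Secretory genes were 9.32% of the UMIs of endothelial cells in control and 31.8% in IR, which lowers the CPM of their other genes, and without the secretory UMIs the shares were 28.7% and 34.9%. Chemokines and cytokines summed to 15827 CPM in control fibroblasts and 20109 CPM in IR, against 2343 and 1259 CPM in endothelial cells. Complement and acute-phase genes summed to 10372 and 9185 CPM, against 704 and 543 CPM. In both libraries C3, the central complement component, was the most abundant of them in fibroblasts, with 754 and 290 UMIs. Basement membrane genes lay closer together, at 3185 and 1971 CPM in fibroblasts and 2051 and 1399 CPM in endothelial cells, and in IR at 2047 and 2050 CPM without the secretory UMIs.

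**Figure D2:**
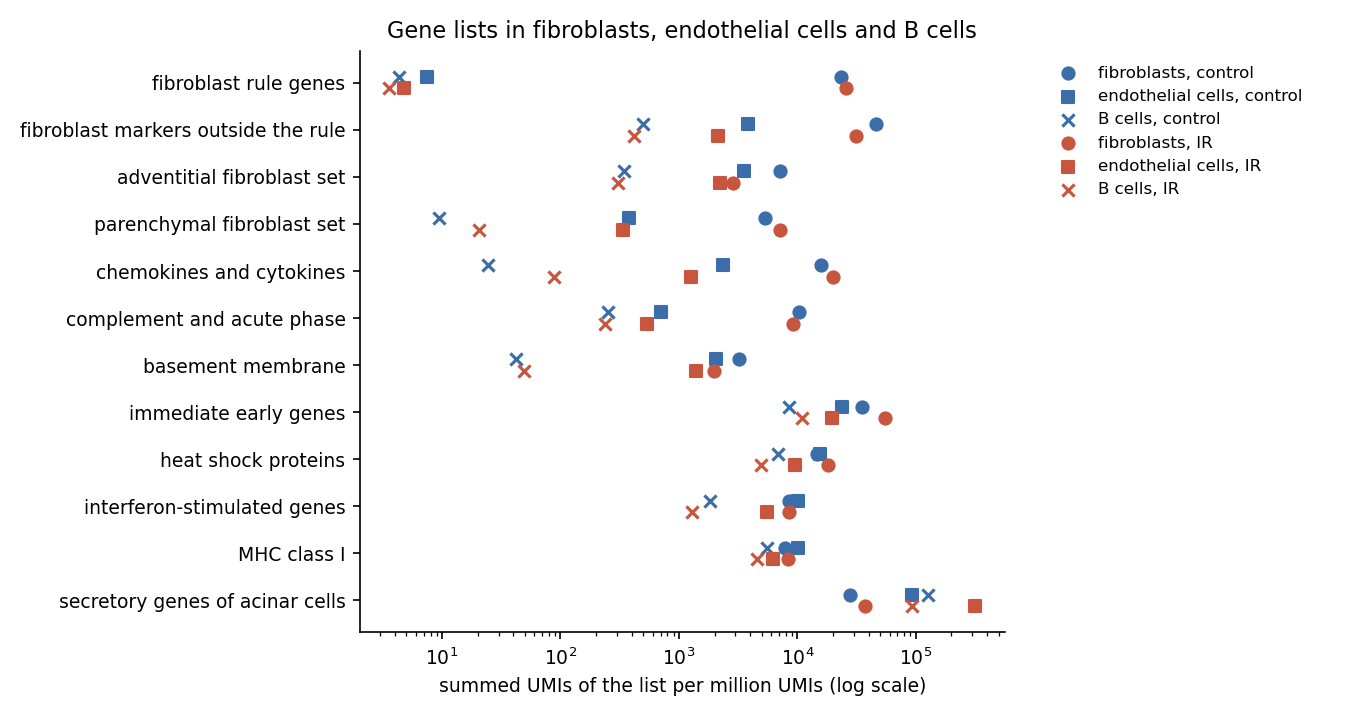
Summed CPM of 12 gene lists (horizontal axis, log scale) in panel-negative fibroblasts (circles), endothelial cells (squares) and B cells (crosses), with control in blue and IR in red. The fibroblast, parenchymal, chemokine and complement lists are far to the right in fibroblasts of both libraries, while MHC class I and secretory genes are not.

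The panel-negative fibroblasts differed among themselves. Cells with at least 10 UMIs of Cxcl12 numbered 7 of 33 in control and 8 of 23 in IR, cells with a Pi16 UMI 11 and 5, and cells with a Col15a1 UMI 13 and 9. Pi16 and 10 UMIs of Cxcl12 occurred together in 1 control cell and in 0 IR cells, Pi16 and Col15a1 in 1 and 2 cells, and Col15a1 and 10 UMIs of Cxcl12 in 2 and 2. These divisions were made after the values had been seen, and the genes that go with them are given by their levels in each library.

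Several chemokines, but not all, were higher in the Cxcl12-rich cells. Of 12 genes of the chemokine and cytokine list with at least 10 UMIs in each library, 7 were at 2 times the CPM of the other fibroblasts in both, and 1, Cxcl14, was at or under 0.5 in both, against 5.22% and 6.07% of the 939 genes with as many UMIs. The 7 include Cxcl12, which defined the group. Cxcl2, which attracts neutrophils, had 86 of its 87 control UMIs in 4 of the 7 Cxcl12-rich cells and all 57 of its IR UMIs in 4 of the 8. Cxcl9 had 45 of 46 and 23 of 23 UMIs there, and its CPM was 142 times that of the other control fibroblasts and at least 12-fold that of the IR ones, or 74.9 times and at least 7.12-fold without the cell with most in each library. Cxcl10, like Cxcl9 an interferon-induced attractant of T cells, was 14.5 times (10.8 to 19.7) as high in control and 14.9 times (7.75 to 32.0) in IR. Cxcl1 was 5.20 and 9.70 times as high. Vcam1, the adhesion molecule that lymphocytes bind, had 45 of 52 control UMIs and 15 of 17 IR UMIs in these cells. The growth arrest ligand Gas6, vitronectin (Vtn) and clusterin (Clu) were over 6 times as high in both libraries. Each without the IR cell that held most of it, Vtn was at 3.82 times (1.07 to 17.0) and Clu at 3.56 times (0.760 to 22.0) in IR. The mural-like IR cell was 1 of the 8, with 10 UMIs of Cxcl12 and 10 of Vtn and none of Cxcl1 or Cxcl10. Transcripts of mural genes went with these cells more widely. The mural list had 29 of its 41 control UMIs in 6 of the 7 cells and 96 of its 98 IR UMIs in all 8, 76 of them in the mural-like cell. Des (desmin) had 12 of 13 control UMIs in 4 cells and all 12 IR UMIs in 6, while Rgs5 was found in 2 and 1 cells and Acta2 in 0 and 1. The part of mural cells in the values of this group was not tested.

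In the Pi16 cells Cd248 (endosialin) was 14.5 times (lower bound of the interval 5.90) as high as in the other fibroblasts in control and 12.6 times (3.59) in IR. Igfbp6 was 10.8 and 10.3 times as high, with UMIs in all 11 and all 5 cells. Ly6c1, Fn1 (fibronectin), Fbn1 (fibrillin-1) and Cd34 were each over 4 times as high in both libraries. Clec3b was 4.11 and 4.04 times as high. Among other genes higher in both were Hspb1, a small heat shock protein (8.93 and 4.71 times), and Plpp3, a lipid phosphatase (3.17 and 4.53 times). In IR much of this came from 1 of the 5 cells, with 4639 UMIs, which held 13 of the 16 UMIs of Cd248, 14 of the 20 of Ly6c1 and 12 of the 16 of Fn1. Without it Cd248 was at 3.05 times (0.408 to 22.7), Fn1 at 2.44 times (0.484 to 11.3) and Fbn1 at 6.09 times (0.873 to 67.4), intervals that hold 1, while Igfbp6 was at 6.85 times (2.84 to 18.2) and Clec3b at 3.28 times (2.07 to 5.21). Of the same 12 chemokines and cytokines, 8 were at or under 0.5 times the rest in both libraries (7.67% of the 939 genes), with 0 UMIs of Cxcl2 or Cxcl9 in either and Cxcl1 at 0.111 and 0.124 times. The others differed between the libraries, such as Ccl11, an attractant of eosinophils, at 0.555 times the rest in control and 2.88 times in IR.

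Col15a1 cells were the third pattern. Myoc (myocilin) had all 44 of its control UMIs and 44 of 50 IR UMIs there, 33 of these in 1 cell, without which the IR level was 2.77 times (0.939 to 9.12) that of the rest. Cxcl14 had all 221 of its control UMIs in 9 of these cells but 82 of 115 IR UMIs, 3.17 times (lower bound 2.09) the level of the other IR fibroblasts. The growth factor midkine (Mdk), the lipocalin Apod, the calcification inhibitor Mgp and Igf1 were each at least 3.36 times as high in both libraries. Without the cell with most of its UMIs, Mgp was at 2.06 times in control and 3.28 times in IR, and Igf1 at 2.75 times and 3.09 times (0.827 to 14.0 in IR, an interval that holds 1). In IR this pattern and that of the Pi16 cells drew in part on the same cells. The 2 IR cells with both Pi16 and Col15a1 had 3 and 1 UMIs of Pi16 and none of Cd248. They held 17 and 31 UMIs of Apod and 24 and 10 of Cxcl14. Penk, the other parenchymal marker named above, was found in 9 control and 8 IR fibroblasts. In control most of its UMIs were in Col15a1 cells, but in IR most were not. The IR cells with most of it, at 3 UMIs each, had no UMI of Col15a1. Fibroblasts without 10 UMIs of Cxcl12 and without a UMI of Pi16 or Col15a1 numbered 5 in each library.

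**Figure D3:**
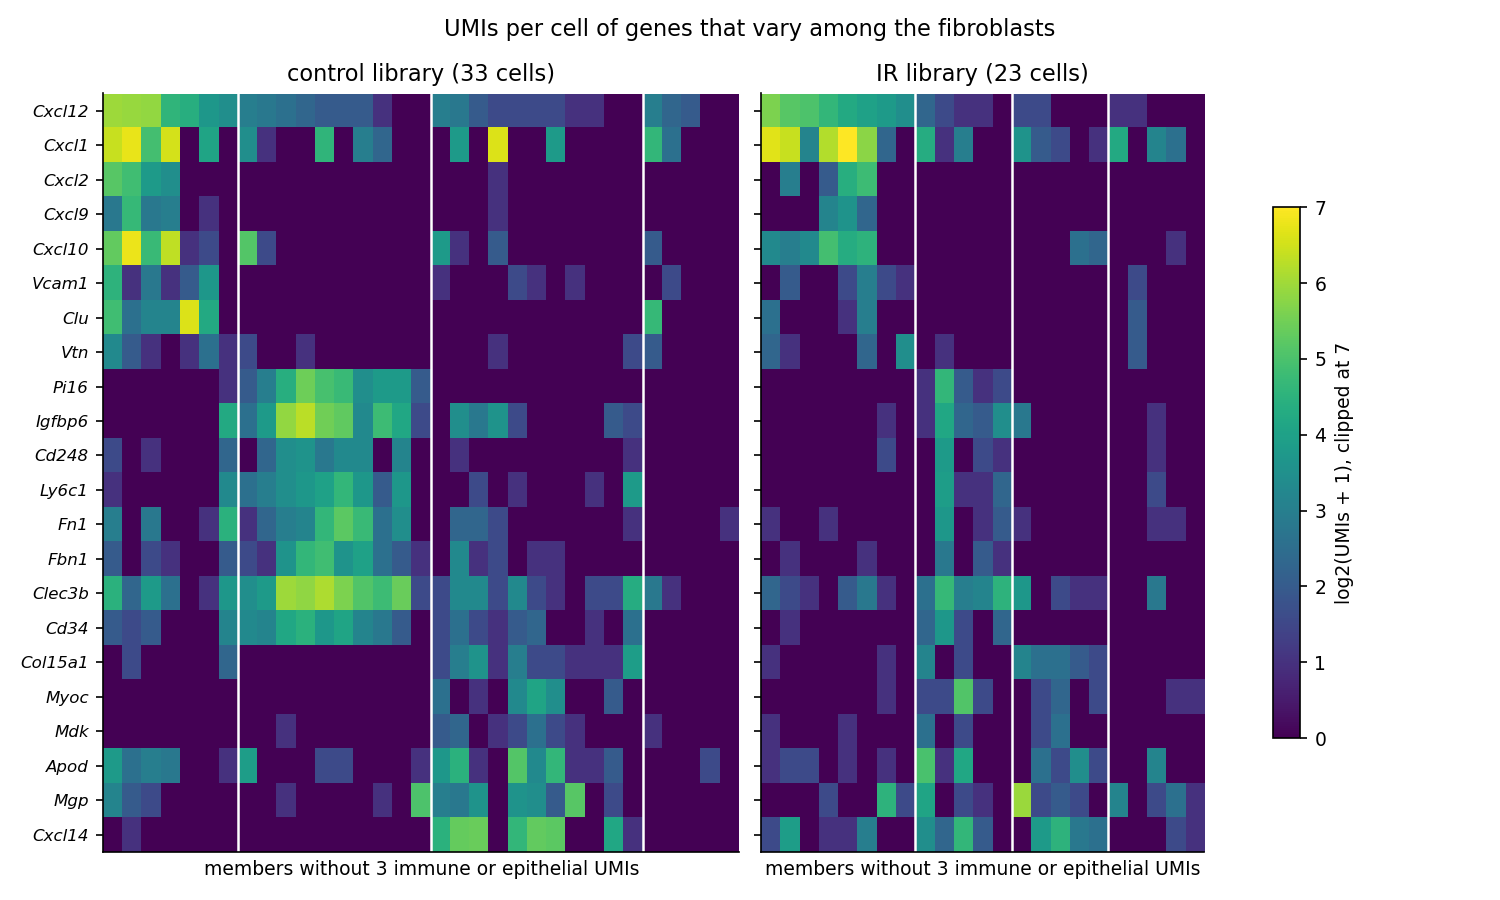
UMIs per cell, as log2(UMIs + 1) in colour, of 22 genes (rows) in the 33 control and 23 IR panel-negative fibroblasts (columns); white lines separate, from the left, cells with at least 10 UMIs of Cxcl12, other cells with Pi16, other cells with Col15a1, and the rest. Chemokine rows light up at left and the rows from Pi16 to Cd34 in the second block in both libraries, with the Pi16 block narrower and dimmer in IR. The rows from Col15a1 to Cxcl14 light up in the third block in control. In IR they do so in the second block as well, where 2 cells held both Pi16 and Col15a1.

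Cxcl1 and Cxcl2 were among the chemokines that marked the Cxcl12-rich cells, and Il6, described below, had the highest IR/control ratio of the genes named for their ratio. Upstream of all 3 starts stood the letters GGGANTTTCC, a form of the kappaB element to which NF-kappaB proteins bind. The 160 bases before each transcription start are shown because these genes share that element. They are taken from RefSeq promoters on GRCm38.p6, where all 6 genes looked up were found, on the plus strand of chromosome 5, 5′ to 3′, with the element in capitals. Cxcl1 spans chr5:90891085-90891244, Cxcl2 chr5:90903739-90903898 and Il6 chr5:30012954-30013113.
Cxcl1: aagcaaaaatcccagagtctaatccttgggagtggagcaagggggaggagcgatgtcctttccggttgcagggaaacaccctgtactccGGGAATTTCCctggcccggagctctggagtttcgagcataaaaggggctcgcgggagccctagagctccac
Cxcl2: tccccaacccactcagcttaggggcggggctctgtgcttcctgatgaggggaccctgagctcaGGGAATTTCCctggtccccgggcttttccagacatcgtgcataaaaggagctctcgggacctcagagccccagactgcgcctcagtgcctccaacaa
Il6: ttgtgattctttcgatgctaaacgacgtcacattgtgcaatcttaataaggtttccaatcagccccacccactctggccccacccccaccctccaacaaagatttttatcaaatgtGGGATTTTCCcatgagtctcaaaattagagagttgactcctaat

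The element began 71 bases before the start of Cxcl1, 97 before that of Cxcl2 and 44 before that of Il6. On either strand it occurred in 78 of 32817 such windows of the RefSeq table, 0.238%. These letters were not in the same windows of Cxcl9, Cxcl10 or Cxcl12, which says nothing of other forms of the element. A match of letters is a description of the sequence, and nothing about binding was measured here.

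Between the conditions, most adventitial genes measured were lower in IR fibroblasts, and few parenchymal genes were. The difference between the lists was not tested. Among all members, 286 of 2519 genes with at least 25 UMIs (11.4%) had an IR/control ratio of at most 0.5, and 99 (3.93%) had one of at least 2. In panel-negative fibroblasts these were 186 (14.4%) and 112 (8.66%) of 1294 genes, with a median ratio of 0.921 over all of them. Of 13 adventitial genes measured in panel-negative fibroblasts, 10 were at or under 0.5 and 0 at or over 2, with a median ratio of 0.301. Of 11 parenchymal genes, 1 was at or under 0.5 and 2 at or over 2, with a median of 1.26. In all members, 11 of 14 adventitial genes (median 0.334) and 2 of 12 parenchymal genes (1.23) were at or under 0.5. Over the processing alternatives, which include leaving out the panel carriers, the adventitial median stayed between 0.126 and 0.414, while the parenchymal median ranged from 0.568 to 1.43. The 0.126 was reached by leaving out the IR cell richest in adventitial genes, which lowers that value by construction. The parenchymal median was under 1 with a mitochondrial limit of 5% (0.934, where all genes had a median of 0.869) and without members that had 3 UMIs of mural genes (0.568, where all genes had a median of 0.632).

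Many ratios, above all those over 2, passed the limit only with 1 cell included. Of 271 genes of the lists or named for a ratio that had 25 UMIs in panel-negative fibroblasts, 37 were at or over 2 and 48 at or under 0.5. Each gene was then taken without the cell that held most of its UMIs in the library where it was higher. Of the 37, 15 stayed at or over 2, and of the 48, 35 stayed at or under 0.5. Some of the others moved little, such as Junb from 2.12 to 1.99, and some more, such as Mgp from 2.36 to 1.32. Ratios named below that did not stay are also given without that cell.

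Anxa3, which encodes an annexin, had 65 UMIs in 9 control fibroblasts and 1 UMI in 1 IR fibroblast, a ratio of 0.0371 (0.000925 to 0.214). The complement regulator Cd55 had 61 UMIs in 13 cells and 3 in 3 (0.119, 0.0238 to 0.363). Sema3c, a guidance ligand, had 55 UMIs in 11 cells and 2 in 2 (0.0877, or 0.152 without the control cell with 25). In control, 64 of the 65 UMIs of Anxa3 and 55 of the 61 of Cd55 were in the 11 cells with Pi16. Pi16 itself had 169 UMIs in 11 cells and 31 in 5, a ratio of 0.442 (0.291 to 0.652), or 0.561 (0.366 to 0.837) without the control cell with 43 of the UMIs. In IR 24 of the 31 UMIs were in 1 cell, and both ratios include it. Cd34, the sialomucin of stromal and vessel cells, had 139 UMIs in 21 cells and 23 in 5 (0.399, 0.245 to 0.623). Limch1 had 27 control UMIs in 8 cells and none in IR, at least 3.73-fold lower against a floor of 3 UMIs over the group. Has1, a hyaluronan synthase (1.17), Cd248 (0.694) and Ly6a (0.523) did not pass the limit.

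The adventitial counts rested on few cells. They summed to 1178 UMIs in the 33 control fibroblasts and to 197 in the 23 IR fibroblasts, and 1 IR cell of 4639 UMIs carried 116 of the 197. The cell with most in control carried 177. Without that IR cell, 12 of 13 adventitial genes of panel-negative fibroblasts were at or under 0.5, and their median ratio was 0.126. Leaving out the IR cell richest in these genes lowers their IR sum by construction, so these values show only the weight of that cell. Cells with Pi16 were also deeper than the other fibroblasts, with medians of 6908 against 3365.5 UMIs in control and 4639 against 2688 in IR. They held 75394 of the 165157 UMIs of control fibroblasts and 20416 of the 68478 of IR fibroblasts, and so weighed more in the control sums. The part of this weight in the ratios of panel-negative fibroblasts was not tested. The number of cells with adventitial transcripts differed less than the sums. After thinning to 1000 UMIs, at least 3 adventitial UMIs were found in 13 of 29 control fibroblasts (44.8%, 26.4 to 64.3) and 5 of 21 IR fibroblasts (23.8%, 8.22 to 47.2), intervals that overlap. For parenchymal genes the counts were 14 of 29 (48.3%, 29.4 to 67.5) and 15 of 21 (71.4%, 47.8 to 88.7). Endothelial cells, which also express Ly6a, Ly6c1 and Cd34, had 3572 CPM of the adventitial list in control and 2232 CPM in IR, and B cells 344 and 307 CPM. Without the secretory UMIs the endothelial values were 3940 and 3271 CPM, and those of panel-negative fibroblasts 7338 and 2987 CPM.

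Of 19 fibroblast markers outside the rule measured in panel-negative fibroblasts, 7 were at or under 0.5 (14.4% of all genes) and 1 at or over 2 (8.66%), with a median ratio of 0.621. Mfap5, a microfibril protein, had 246 UMIs in control and 18 in IR (0.176, 0.103 to 0.285). Fbn1 had 124 and 12 (0.233), Igfbp6 341 and 43 (0.304) and Dpt 204 and 40 (0.473, or 0.509 without its leading cell). In control the 11 cells with Pi16 held 208 of the 246 UMIs of Mfap5, 104 of the 124 of Fbn1 and 307 of the 341 of Igfbp6. These ratios thus drew largely on the same cells as those of the adventitial list, which also shares Cd34 and Ly6a with this one. Serping1, the C1 inhibitor, was at 1.02 and Vim at 0.996. Fbln1, which encodes fibulin-1, went the other way, with 44 and 43 UMIs (2.36, 1.51 to 3.67), or 1.84 without the IR cell with most. Pdgfra, the receptor by which fibroblasts are often sorted, had 58 and 16 UMIs (0.665, 0.357 to 1.17), an interval that holds 1.

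**Figure D4:**
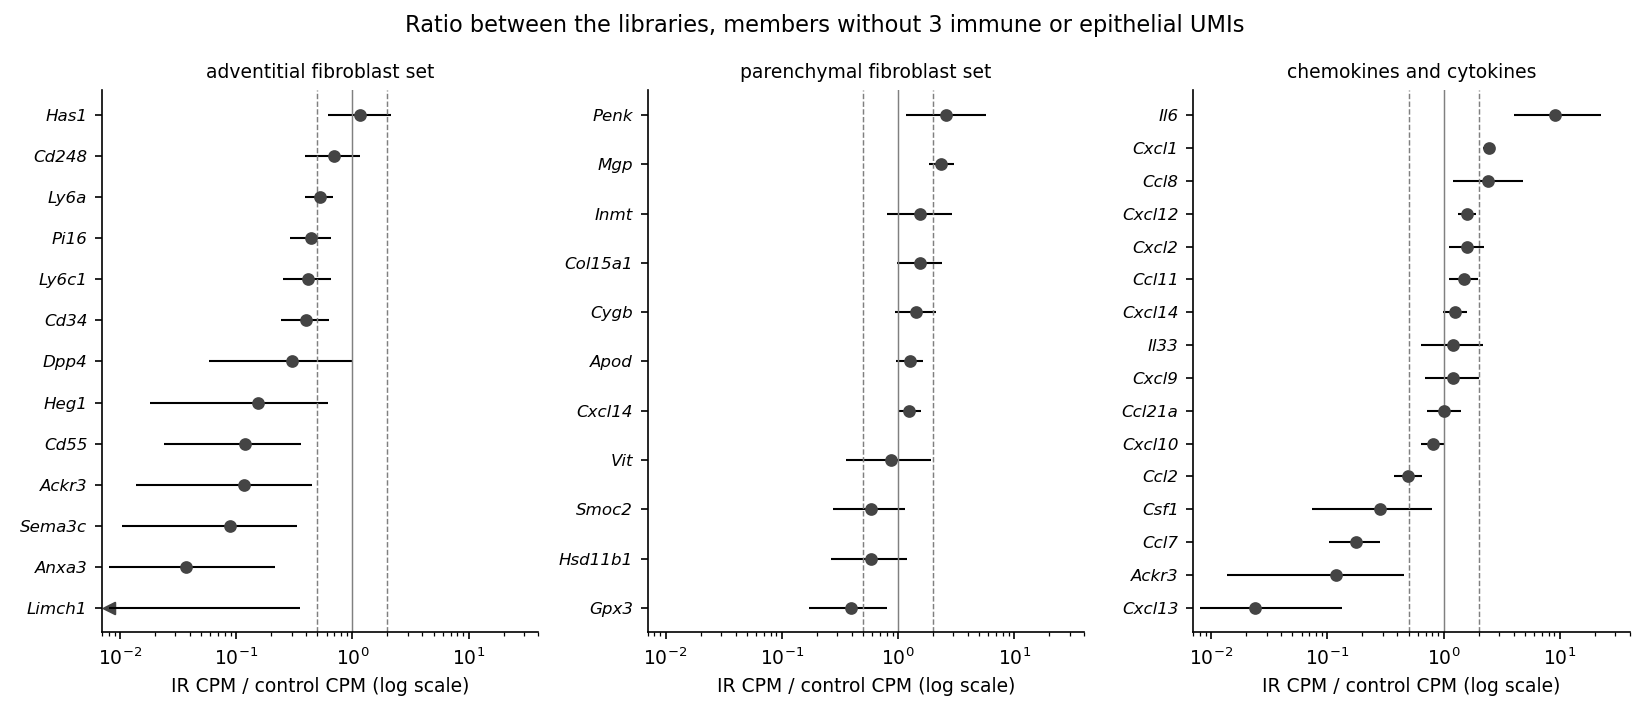
IR over control ratio of CPM (horizontal axis, log scale) in panel-negative fibroblasts for each gene with at least 25 UMIs of the adventitial, parenchymal and chemokine lists; points are ratios, bars exact 95% intervals of counting error drawn from 0.008 upward, the triangle a gene with 0 IR UMIs, and dashed lines 0.5 and 2. Adventitial points lie mostly left of 0.5 and parenchymal points around 1, and Il6 is the rightmost chemokine or cytokine.

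Of 8 genes measured in the list of collagen folding, cleavage and cross-linking, 3 were at or under 0.5 and 0 at or over 2, against 14.4% and 8.66% of all genes. The 3 were Loxl1 (0.241, 0.0751 to 0.601) and Loxl2 (0.210), which cross-link collagen, and Pcolce2 (0.185, 0.0780 to 0.379), which enhances its cleavage. Serpinh1, the collagen chaperone, was at 1.08. Of 17 matrix glycoproteins 5 were at or under 0.5 and 2 at or over 2, against 14.4% and 8.66% of all genes. The 5 include Fn1 (169 and 21 UMIs, 0.300) and Ecm1 (122 and 18, 0.356). They also include Postn (0.467, or 0.567 without its leading cell) and Thbs3 (0.459, or 0.532), so that the count rested in part on single cells. In control the cells with Pi16 held 143 of the 169 UMIs of Fn1 and 95 of the 122 of Ecm1. The 2 were Mgp (132 and 129, 2.36, 1.83 to 3.03) and Tgfbi (16 and 18, 2.71). One IR cell of 3920 UMIs held 61 of the UMIs of Mgp, and without it the ratio was 1.32 (0.969 to 1.78). Of 12 proteases and inhibitors 5 were at or under 0.5 (14.4% of all genes) and 1 at or over 2 (8.66%). Timp2, an inhibitor of metalloproteinases, had 429 and 60 UMIs (0.337, 0.253 to 0.443) and the serine protease Htra3 151 and 21 (0.335). Adamts1 had 61 and 67 UMIs (2.65, 1.84 to 3.81). None of the 8 collagens and partners outside the rule was at or over 2, and Col6a2 (0.490, or 0.556 without its leading cell) was at or under 0.5.

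Among signals to other cells, Il6 stood out. This cytokine had 8 UMIs in 5 of 46 control members and 31 UMIs in 10 of 32 IR members, a ratio of 8.62 (3.87 to 21.7), the highest of any gene that met the naming rule. In panel-negative fibroblasts it had 8 and 30 UMIs (9.04, 4.05 to 22.8), and endothelial cells had 7.48 and 9.52 CPM of it against 48.4 CPM in control and 438 CPM in IR fibroblasts. No fibroblast of the control library had more than 3 UMIs of Il6, and the highest in IR had 9. Of the 30 IR UMIs, 16 were in 5 of the 8 Cxcl12-rich cells and 18 in 3 of the 9 cells with Col15a1, 1 cell with Il6 being in both groups. Without its leading cell Il6 was at 6.72 (2.86 to 17.5). Cxcl1 had 527 and 539 UMIs (2.47, 2.18 to 2.79, or 1.92 without the IR cell with 140) and Cxcl12 315 and 209 (1.60, 1.34 to 1.91). Other chemokines were lower in IR. Ccl7, an attractant of monocytes, had 247 and 18 UMIs (0.176, 0.103 to 0.284, or 0.305 without the control cell with 110), Ccl2 324 and 67 (0.499, 0.378 to 0.651, or 0.721 without the control cell with 107), and Cxcl13, which attracts B cells, 102 UMIs in 3 control cells, 93 of them in 1, and 1 in IR. In all, 3 of 16 chemokines and cytokines measured were at or over 2 and 5 at or under 0.5, against 8.66% and 14.4% of all genes.

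Growth factors and their binding proteins had 3 of 12 at or over 2 and 2 at or under 0.5, against 8.66% and 14.4% of all genes. Igfbp3, a carrier of insulin-like growth factors, had 12 and 20 UMIs (4.02, 1.87 to 9.02), and Vegfa, the vessel growth factor, 21 and 22 (2.53, 1.33 to 4.83, or 1.85 without its leading cell). Igfbp5 had 300 and 51 (0.410). Of the 8 genes of the TGF-beta, BMP, Wnt and hedgehog list that were measured, 3 were at or under 0.5, with Sfrp2, a secreted Wnt modulator, at 79 and 4 UMIs (0.122, 0.0325 to 0.325). Of 16 receptors measured, 2 were at or over 2 and 2 at or under 0.5, against 8.66% and 14.4% of all genes. Osmr, through which oncostatin M acts, was at 3.27 (1.56 to 7.06) and Thy1 at 0.254. Tnfrsf1a was at 2.05 (1.81 without its leading cell) and Cd44 at 0.439 (0.570 without its leading cell).

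The other genes with the highest ratios in all members were Rgs16, 4833423E24Rik, Igfbp3, Gm13889, Prpmp5, Cpeb4, Oser1, Emp1 and Tiparp, between 3.01 and 6.95. Rgs16, a brake on G protein signals, had 8 UMIs in 5 control and 25 in 5 IR members, and 24 of the IR UMIs were in Cxcl12-rich fibroblasts. In panel-negative fibroblasts its ratio was 7.54, or 4.79 without the IR cell with 10, and that of Gm13889 was 3.47, or 1.90 without the IR cell with 11. Emp1, an epithelial membrane protein, was the most widely found, with 45 UMIs in 16 and 61 UMIs in 18 members (3.01, 2.02 to 4.53). 4833423E24Rik and Prpmp5 had almost no UMIs in panel-negative fibroblasts, 1 and 2 for the former and 2 and 3 for the latter, so that their values came from members that carried the epithelial panel. The lowest ratios were those of Ifit3, Limch1, Anxa3, H2-Ab1, Csf2rb, Ackr3, Heg1, Cd55, Pla1a and Sfrp2, and 5 of these are adventitial genes of the list. H2-Ab1, an MHC class II chain of immune cells, had 93 UMIs in control members but 7 in panel-negative ones. Ifit3, an interferon-induced gene, had 25 control UMIs in 6 members and none in IR, at least 3.75-fold lower.

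Immediate early genes are switched on within minutes of a stimulus or of handling. Of 25 measured in panel-negative fibroblasts, 4 were at or over 2 (8.66% of all genes) and 0 at or under 0.5 (14.4%), with a median ratio of 1.58. The 4 were Zfp36 (3.44), Btg1 (2.80), Socs3 (2.80) and Junb (2.12, or 1.99 without its leading cell). The list summed to 35076 CPM in control and 55025 CPM in IR fibroblasts, against 23945 and 19784 CPM in endothelial cells. Without the secretory UMIs the sums were 36085 and 57132 CPM in fibroblasts and 26405 and 28991 CPM in endothelial cells, so that the order of the endothelial values turned round. In all members the median was 1.01, with 1 of 27 at or over 2. Of 16 heat shock genes 4 were at or over 2 (8.66% of all genes, and 0 of 16 in all members), such as Dnajb1 (2.16, or 1.94 without its leading cell), and Hspa1a, the main inducible chaperone, was at 0.408 (384 and 65 UMIs, or 0.531 without the control cell with 98). Of 7 nuclear and rRNA-like RNAs measured, 3 were at or over 2 (8.66% of all genes) and 0 at or under 0.5, with a median ratio of 1.63. In all members 2 of 7 were at or over 2, with a median of 1.22. Malat1 had 4755 and 2673 UMIs (1.36), which did not pass the limit, and Neat1, which builds paraspeckles, 202 and 178 (2.13, or 1.82 without its leading cell). The median mitochondrial share was 2.50% in control and 3.34% in IR fibroblasts. The part of dissociation and RNA quality in these values was not tested.

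Of 10 interferon-stimulated genes measured in panel-negative fibroblasts, 1 was at or over 2 and 1 at or under 0.5 (8.66% and 14.4% of all genes), with a median ratio of 0.939. In all members 6 of 16 were at or under 0.5 (11.4% of all genes) and 1 at or over 2, with a median of 0.678. Iigp1, a GTPase induced by interferon gamma, had 51 and 69 UMIs (3.26, 2.24 to 4.78), and Ifi27l2a 147 and 22 (0.361). MHC class I genes had 0 of 6 past either limit and a median of 1.11, and in all members 2 of 7 were at or under 0.5, with a median of 0.904. Cdkn1a, which encodes the cell cycle inhibitor p21, was the only gene of the p53 and senescence list with 25 UMIs, 77 and 29 (0.908, 0.571 to 1.41). Of the myofibroblast list, Acan, Cthrc1 and Lrrc15 had no UMI, and 37 of the 38 UMIs of Acta2 were in the mural-like IR cell. Cell cycle genes had 10 and 7 UMIs in all.

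Secretory genes of acinar cells apart, few transcripts of other cell types were counted in panel-negative fibroblasts. For the immune, epithelial and endothelial lists this follows in part from the choice of the cells, which limited genes of all 3. The immune list summed to 9 and 19 UMIs, led by Jchain, the epithelial list to 30 and 14, led by Krt19, the endothelial list to 78 and 29, led by Ramp2, and the mural list to 41 and 98. The mesothelial list had 9 and 1 UMIs, with Msln, Upk3b, Upk1b, Lrrn4 and Gpm6a at 0. The secretory list of acinar cells, which the choice did not use, had 4619 and 2526 UMIs led by Bpifa2, which was found in every control and IR fibroblast. It was also found in every endothelial cell and every B cell of both libraries, so that its presence in a fibroblast is read as background. Bpifa2 was at 1.53 (1.44 to 1.63) in IR over control fibroblasts, and its part in the other ratios was not tested beyond a scaling without such genes.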

How the data were processed

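Parotid cells of 2 mice per condition were sequenced as 1 library each. The submitters' processing notes name Cell Ranger 3.0.1, Seurat 3 and the build mm10 (GRCm38), and the authors deposited raw UMI counts per gene and barcode. How cells were told from empty droplets is not given in the sources used here. The members and gene lists were chosen with earlier results of these data known, and the divisions by Cxcl12, Pi16 and Col15a1 were made after values had been seen.

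UMIs were summed over cells of a library and scaled to CPM. Barcodes needed 200 genes and at most 10% mitochondrial UMIs. Genes with at least 25 UMIs over the groups compared were held to a size rule of 2 times (0.5 when lower), with no p-value, since each condition had 1 library. Intervals are exact (95%): Clopper-Pearson for shares and conditional binomial for ratios. A count of 0 was set to a floor of 3 UMIs. These cover counting error only. Shares of cells were also taken after thinning to 1000 UMIs. No doublet caller was run, and values were repeated without members that carried the immune or epithelial panel. The genes named were rule genes, markers, genes of 35 lists, the 10 highest ratios over other cells and the 10 highest and 10 lowest IR/control ratios with UMIs in at least 5 members and no cell above 50% of them. Some items are not reported here. Positions are from a GENCODE annotation of GRCm38.

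Tested on simulated data with counting noise only, the comparison of conditions over 2534 genes of all members recovered 98 of 100 genes raised 4-fold and 77 of 78 lowered to 0.25, and 6.03% of 2356 unchanged genes passed the size rule. Over 1292 genes of panel-negative fibroblasts the values were 98 of 100, 82 of 84, and 4.06% of 1108. Python 3.11.15, numpy 2.4.6, scipy 1.17.1, pandas 2.3.3, matplotlib 3.10.9 and R 4.3.3 were used, with edgeR 4.0.16 for the TMM factors of an alternative only.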

Additional observations from a re-analysis of the deposited data

How the results depend on the processing

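No paired analysis was possible because each condition had 1 library and no result came from a test. With 46 and 32 members, genes of few UMIs had wide intervals, and the number of mice and the depth limit every ratio. In each alternative the median ratio of adventitial genes was under that of all genes tested. Without members that carried the immune or epithelial panel, the control share was 0.804% and 186 genes were lower in IR. A size rule of 1.5 times gave 280 genes higher and 618 lower in IR, and one of 3 times gave 18 and 97, with 7 adventitial genes lower. With at least 10 UMIs per gene, 1342 control and 584 IR genes were high in members, 643 and 330 were 2 times endothelial cells, and 396 were higher and 936 lower in IR. With at least 50 UMIs these were 311 and 130, 183 and 70, and 39 and 108, with 7 adventitial genes lower. With the mean of per-cell CPM, 216 IR genes were 2 times endothelial cells and 216 were higher in IR. After thinning to 1000 UMIs, 22 genes were higher and 43 lower, 3 of them adventitial. Without members with 3 mural UMIs, 45 were higher and 473 lower. The counts under other UMI minimums or size rules follow from how many genes they admit, and for the other changes the cause was not tested. Those that left out members without collagen, the IR member richest in adventitial genes or the leading cell of a gene or group were chosen after seeing the data. Leaving out members with no collagen UMI took 4833423E24Rik to 0.797. The ratios of the other named genes kept their direction, with 613 values near the reported one and 44 further from it.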

Other observations

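The remaining gene lists are given for panel-negative fibroblasts, where 8.66% of all genes had an IR/control ratio of at least 2 and 14.4% one of at most 0.5. Of 16 transcription factors measured, 3 had a ratio of at least 2 and 1 of at most 0.5, against 1 and 3 of 21 in all members. Cebpb (103 and 90 UMIs, 2.11, 1.57 to 2.82) and Cebpd (86 and 79, 2.22, 1.61 to 3.04) are leucine zipper factors of inflammation and fat cell formation, at 1.82 and 1.94 without the IR cell with most of their UMIs, and Twist1 had 14 and 14 UMIs (2.41, 1.07 to 5.46). Nfix was at 0.482, or 0.510 without its leading cell. Of 18 antioxidant and metallothionein genes, Sod2, the mitochondrial superoxide dismutase, was at 2.09 (1.19 to 3.66, or 1.71 without its leading cell), and Gpx3 (0.395) and Gstm2 (0.329, an interval that holds 1) were at or under 0.5.

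Among complement and acute-phase genes Cp, ceruloplasmin, was at 2.12 (1.14 to 3.92, or 1.51 without its leading cell). The 3 at or under 0.5 were Cd55, Pla1a (0.126) and Clu (191 UMIs in 7 cells and 16 in 4, 0.202, or 0.413 without the control cell with 99). Of 10 basement membrane genes 2 were at or under 0.5, Lama4 (0.422) and Col4a2 (0.482, an interval that holds 1, and 0.605 without its leading cell), and 0 at or over 2, a share near that of all genes. Of 9 elastic fibre genes 2 were at or under 0.5 and 1 at or over 2, and of 4 further small proteoglycans Aspn (asporin) was at 0.292. Lpl (0.871) and Apoe (1.13), the 2 adipocyte-lineage genes measured, and the 2 haemoglobin genes measured did not pass either limit.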
